A study of Mus musculus with 6 samples.

Results

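The genes described here encode the water channel of the astrocyte endfoot and the protein complexes around it: Aqp4, Dtna, Dag1, Dmd, Utrn, Mlc1, Hepacam and Clcn2. They were taken by symbol, through their Ensembl identifiers, and all 8 were found among the 35275 genes of the deposited table. RNA of whole spinal cord was sequenced from 3 Sox2 cKO and 3 control (Ctrl) mice on the C57BL/6 background. Sox2 cKO mice were mGfap-Cre:Sox2fl/fl, in which Cre under the mouse Gfap promoter deletes the floxed Sox2 gene in most astrocytes and may also act in other cells in which that promoter is active. The sample labels give the Ctrl mice as mGfap-Cre:Sox2+/+, so that both groups would carry Cre, whereas the study's methods describe littermates with the floxed allele and no Cre. The labels give an age of 90 days and the extraction protocol 80 days, and mice of both sexes were used in each group.

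Astrocytes wrap the vessels of the central nervous system with flattened processes called endfeet, where the water channel aquaporin 4 (AQP4) is densely packed in the membrane that faces the basal lamina. AQP4 is held there by the dystrophin complex: dystroglycan, encoded by Dag1, spans the membrane and binds laminin and agrin outside the cell, and dystrophin (Dmd) or its close relative utrophin (Utrn), with dystrobrevin (Dtna), ties it to the cytoskeleton inside. A second assembly holds the membrane protein MLC1, the adhesion molecule HEPACAM (also called GlialCAM) and the chloride channel ClC-2, encoded by Clcn2, and loss of MLC1 or HEPACAM causes a leukodystrophy with swollen white matter.

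Libraries in the deposited tables are numbered and bear no sample name. Those numbered 2, 4 and 6 entered as Ctrl and those numbered 1, 3 and 5 as Sox2 cKO, a grouping read from the mouse numbers beside a protein blot and resting on the assumption that the same mice gave the RNA. Group means of normalized counts were compared with a published list of such means, and 1999 of 1999 genes matched within a relative tolerance of 0.0001, against 0 with the groups swapped. Replicate numbers could not be attached to the libraries, which are called by their own numbers. Sox2 itself stood at 19.9, 14.8 and 29.5 CPM (counts scaled to a common library size by the TMM method of edgeR) in Ctrl libraries 2, 4 and 6 and at 3.16, 2.69 and 2.98 CPM in Sox2 cKO libraries 1, 3 and 5. It fell by 2.86 ± 0.24 on the log2 scale (edgeR quasi-likelihood test, Benjamini-Hochberg adjusted p = 0.000956) and was lower in every library assigned to Sox2 cKO than in every library assigned to Ctrl. Libraries held 21507911 to 28392184 counts on genes and the groups overlapped in depth. Between 685 and 19511 of these counts fell on each of the 8 genes in a library. In what follows, log2 fold changes are Sox2 cKO over Ctrl with a standard error derived from the test statistic (n = 3 mice in each group), and means are given with the SD.

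Sequences of SOX2-bound sites are shown for Mlc1 and Hepacam, the genes among the 8 for which the study's table of site sequences, made from SOX2 binding in adult cerebral cortex, lists a site in a peak assigned to them. SOX2 binds DNA through a short core, CAAAG and its variants, and the capitals below mark the site as listed, written 5′ to 3′ on the minus strand of mm10 with its flanks in lower case.
Hepacam, distal site: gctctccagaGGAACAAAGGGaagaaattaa
Hepacam, nearer site: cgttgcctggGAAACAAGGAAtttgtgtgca
Mlc1, upstream site: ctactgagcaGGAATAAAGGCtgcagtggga
The Hepacam stretches lie at chr9:37359198-37359228 and chr9:37359811-37359841, with the marked sites 8133 and 7520 bases upstream of the start of the gene (chr9:37367351-37386575, plus strand). The Mlc1 stretch lies at chr15:88979044-88979074, with the marked site 47 bases upstream of the start of Mlc1 in GENCODE (chr15:88955884-88979007, minus strand) and 501 bases upstream of its start in RefSeq. None of the 3 overlaps an annotated gene. Only the distal Hepacam site holds the letters ACAAAG. In promoter windows of RefSeq, from 250 bases before to 50 bases after a gene's start, these letters occurred on either strand in 18.7% of 32851 windows, and among the 6 members with a window in that of Hepacam alone. No site sequence is shown for the other members, which says nothing on whether SOX2 binds at them. A match of letters is a description, and these sites were not measured in the spinal cords sequenced here.

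In Sox2 cKO spinal cord 4 of the 8 genes fell and 1 rose. Aqp4, Dag1, Utrn and Dtna fell by 0.32 to 0.44 on the log2 scale, or 20.1% to 26.0%, while Clcn2 rose by 0.42. Hepacam, Dmd and Mlc1 were 12.5% to 14.4% lower in Sox2 cKO, and none of these differences passed the test. Over all 16137 genes tested, 12.4% were called lower and 12.2% higher by the same test. Ctrl and Sox2 cKO libraries were separate in CPM for 8 of 8 genes, 7 of them lower and Clcn2 higher in Sox2 cKO. Over all genes tested, 22.1% were separate with Sox2 cKO lower and 22.6% with Sox2 cKO higher. Without regard to gene length, the median log2 fold change was -0.274 over the 8 genes and 0.018 over all genes tested. In RNA of whole tissue, fewer cells of a type cannot be told apart from less RNA in each cell.

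**Figure D1:**
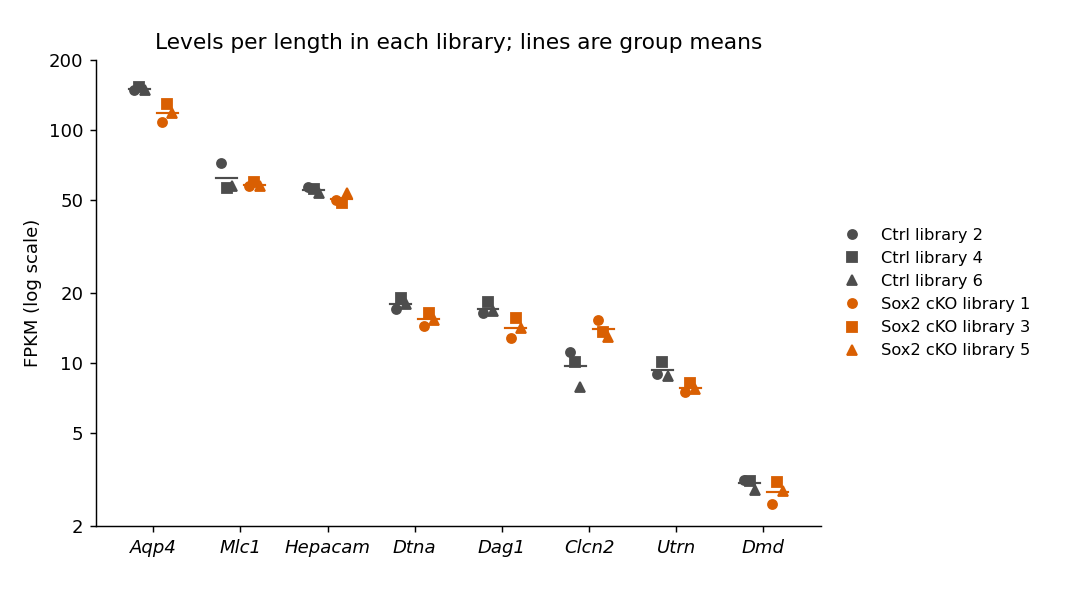
FPKM (vertical axis, log scale) of the 8 genes in each of the 6 libraries, Ctrl in grey and Sox2 cKO in orange, with a line at each group mean and the genes in order of their level. Aqp4 was the highest in every library and Dmd the lowest, and Clcn2 is the gene whose Sox2 cKO libraries all lie above its Ctrl libraries.

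Fold changes in these libraries fell with gene length, which bears on how the 8 genes are read. With the genes tested split into 5 length classes of nearly equal size, the median log2 fold change was 0.299 in the shortest class (66 to 1708 bases) and -0.252 in the longest (4872 bases and more). Of the 3227 genes in the longest class, 1161 were called lower and 56 higher. Aqp4 (5082 bases), Dtna (6321), Utrn (12382) and Dmd (14910) belong to that class, Dag1 (4415) and Clcn2 (3944) to the next shorter one, with a median of -0.066, and Hepacam (3327) and Mlc1 (2801) to the middle one, with a median of 0.04. A further edgeR fit therefore took out, in each library, a smooth trend of the counts with gene length. It called 2 of the 8 genes lower, Aqp4 and Dag1, and 1 higher, Clcn2, where it called 6.99% of all genes lower and 6.08% higher. In that fit the median log2 fold change was -0.161 over the 8 genes and 0.001 over all genes tested. What produced the trend with length was not tested.

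**Figure D2:**
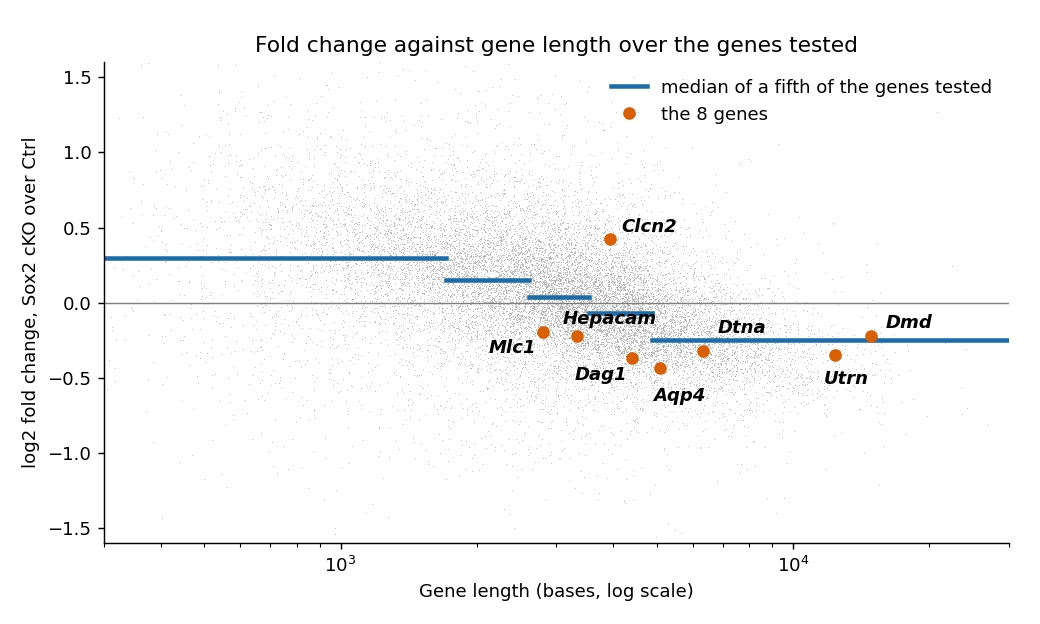
log2 fold change of Sox2 cKO over Ctrl (vertical axis) against gene length in bases (log scale) for the genes tested (small points), with the median of each of 5 length classes (blue lines) and the 8 genes in orange. Dmd, Utrn and Dtna lie within 0.1 of the median of the longest class, Aqp4, Dag1, Hepacam and Mlc1 further below the medians of their classes, and Clcn2 above its own.

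Aqp4, the water channel, on chromosome 18, had 757, 811 and 797 CPM in Ctrl libraries 2, 4 and 6, and 518, 636 and 595 CPM in Sox2 cKO libraries 1, 3 and 5. Every Sox2 cKO library lay below every Ctrl library, with library 1 the lowest. The means were 788 ± 28.4 and 583 ± 60.2 CPM, and Aqp4 fell by 0.44 ± 0.09 on the log2 scale (edgeR adjusted p = 0.0149). With the length correction it fell by 0.29 ± 0.07 (edgeR adjusted p = 0.0327). Its edgeR call was lost without Ctrl library 4 (adjusted p = 0.0710) and without Sox2 cKO library 1 (adjusted p = 0.0667), while DESeq2 kept it without any one of the 6 libraries.

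Dag1 (chr9:108204634-108263958) encodes dystroglycan, the receptor that links the dystrophin complex to laminin and agrin. It had 72.9, 84.0 and 78.1 CPM in Ctrl and 53.6, 66.5 and 61.7 CPM in Sox2 cKO, again with library 1 the lowest and no overlap. Dag1 fell by 0.37 ± 0.10 on the log2 scale (edgeR adjusted p = 0.0233), and by 0.28 ± 0.08 with the length correction (edgeR adjusted p = 0.0463). Under edgeR the call was kept only without Ctrl library 2 or without Sox2 cKO library 3.

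Dtna, on chromosome 18, encodes α-dystrobrevin, a cytoplasmic partner of dystrophin and utrophin that helps to keep AQP4 at the endfoot. Its values were 108, 125 and 121 CPM in Ctrl and 86.4, 101 and 95.6 CPM in Sox2 cKO. The highest Sox2 cKO library, 3, was below the lowest Ctrl library, 2. The fall of 0.32 ± 0.09 on the log2 scale passed the test (edgeR adjusted p = 0.0282), and the value with the length correction, -0.09 ± 0.06, did not (edgeR adjusted p = 0.311). An antisense transcript, Gm47898, shares 90 exon bases with Dtna on the opposite strand.

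Utrn (chr10:12382188-12869365) encodes utrophin, which in the brain is found at vessels and in other non-neuronal sites. It had 112, 131 and 116 CPM in Ctrl and 88.4, 98.4 and 95.05 CPM in Sox2 cKO, without overlap. Utrn fell by 0.35 ± 0.09 on the log2 scale (edgeR adjusted p = 0.0208). With the length correction its sign turned, at 0.07 ± 0.08 (edgeR adjusted p = 0.567). For Dtna and Utrn alike the edgeR call was kept only without Ctrl library 2, and it was lost without any one of the other libraries.

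Dmd (chrX:82948870-85206141) encodes dystrophin, whose short forms from internal promoters serve glia and whose full-length form serves muscle and neurons. The counts cover the whole gene, so these forms were not separated. Ctrl libraries had 47.4, 48.6 and 45.4 CPM and Sox2 cKO libraries 35.1, 44.5 and 41.8 CPM. The groups came within 1 CPM of each other, at 45.4 in Ctrl library 6 and 44.5 in Sox2 cKO library 3. In FPKM, which are scaled by library totals without the TMM factors, they overlapped. The log2 fold change of -0.22 ± 0.10 did not pass the test (edgeR adjusted p = 0.126), and with the length correction it was 0.23 ± 0.11 (edgeR adjusted p = 0.183). Leaving out Sox2 cKO library 1, the lowest, gave -0.13.

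Skeletal muscle expresses Dmd, Utrn and Dag1, and muscle markers differed between libraries. The summed level of 9 such markers was 17.7, 10.4 and 9.65 CPM in Ctrl and 39.4, 6.48 and 92.2 CPM in Sox2 cKO libraries 1, 3 and 5. Library 5, where these markers were highest, was the middle one of the Sox2 cKO libraries for Dmd, Utrn and Dag1, and library 1, where they were next highest, was the lowest for all 3. Without library 5 the log2 fold change of Dmd was -0.24 and that of Utrn -0.36. Without library 1 those of Dmd and Utrn were -0.13 and -0.30. The part of muscle RNA in the levels of these genes was not tested. Over the 8 muscle markers tested the median log2 fold change reached 1.88. Of these 1, Mylpf, a myosin light chain of fast muscle, was called higher, where 12.2% of all genes were.

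**Figure D3:**
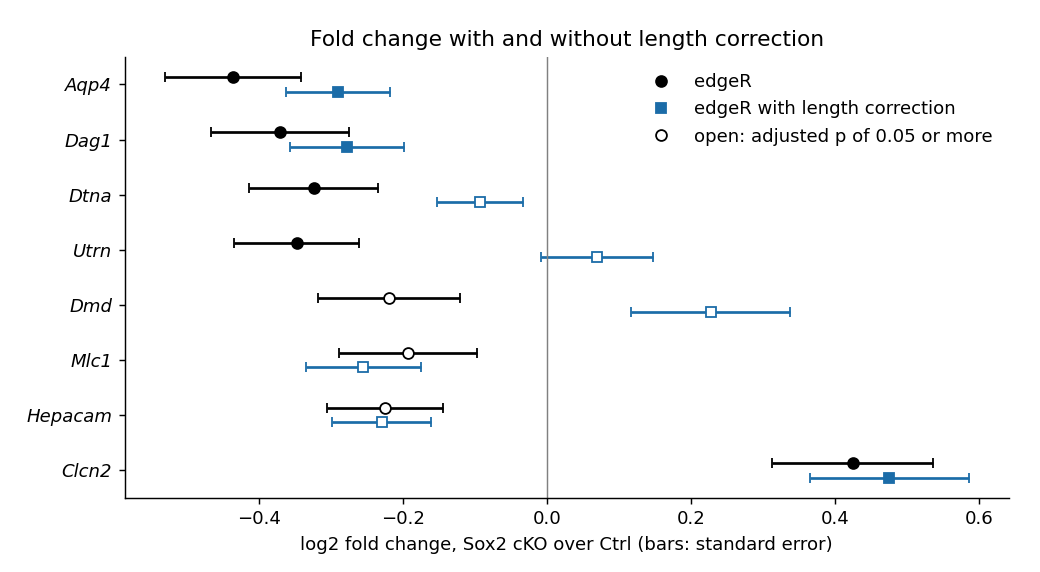
log2 fold change of Sox2 cKO over Ctrl (horizontal axis) with its standard error for the 8 genes, from edgeR (black circles) and from edgeR with the length correction (blue squares), with filled marks for an adjusted p below 0.05. The correction left the calls of Aqp4, Dag1 and Clcn2 in place, took those of Dtna and Utrn away, and moved Utrn and Dmd across 0.

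Mlc1, with the upstream site shown above, had 205, 165 and 171 CPM in Ctrl and 152, 162 and 159 CPM in Sox2 cKO. Ctrl library 2 stood well above the other 5 libraries, which lay between 152 and 171 CPM. The log2 fold change of -0.19 ± 0.10 did not pass the test (edgeR adjusted p = 0.161), nor did that with the length correction, -0.25 ± 0.08 (edgeR adjusted p = 0.0597). Without Ctrl library 2 it was -0.09. In FPKM, which are scaled by library totals without the TMM factors, the groups overlapped, with 72.5, 56.6 and 57.6 in Ctrl and 57.6, 59.6 and 57.4 in Sox2 cKO.

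Hepacam, with both upstream sites, had 190.0, 194 and 189.7 CPM in Ctrl, the narrowest Ctrl range of the 8 genes relative to the level, and 157, 157 and 176 CPM in Sox2 cKO. The groups did not overlap. Its log2 fold change was -0.22 ± 0.08 (edgeR adjusted p = 0.0654), and -0.23 ± 0.07 with the length correction (edgeR adjusted p = 0.0541). DESeq2 called it lower (adjusted p = 0.0280) and kept that call in 2 of 6 fits without a library, while limma on log2 FPKM did not call it (adjusted p = 0.195).

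Clcn2 (chr16:20702964-20717746), the chloride channel gene, moved the other way. It had 44.5, 41.4 and 33.1 CPM in Ctrl and 57.1, 52.0 and 50.7 CPM in Sox2 cKO, so every Sox2 cKO library lay above every Ctrl library. The means were 39.7 ± 5.91 and 53.3 ± 3.38 CPM, and Clcn2 rose by 0.42 ± 0.11 on the log2 scale (edgeR adjusted p = 0.0247). With the length correction the rise was 0.48 ± 0.11 (edgeR adjusted p = 0.0274). The edgeR call was kept without Ctrl library 2 and without Sox2 cKO library 5 and lost without any other library, and the lowest log2 fold change, 0.31, came without Ctrl library 6.

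Exons of Clcn2 overlap those of 2 protein-coding genes on the opposite strand, by 85 bases for Fam131a and 82 bases for Polr2h, an RNA polymerase subunit. The library kit keeps the strand, but the strand setting of the counting is not given in the sources used here. Polr2h rose by 0.72 ± 0.14 on the log2 scale, with 8.54 ± 1.48 CPM in Ctrl and 14.1 ± 0.899 CPM in Sox2 cKO (edgeR adjusted p = 0.0130). Fam131a, at 28.5 ± 4.90 and 35.6 ± 2.63 CPM, had a log2 fold change of 0.32 that did not pass the test (edgeR adjusted p = 0.0804). Their part in the counts of Clcn2 was not tested.

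Per length, the 8 genes spanned a wide range and kept their order in Sox2 cKO. Mean FPKM in Ctrl were 149.7 ± 3.25 for Aqp4, 62.2 ± 8.92 for Mlc1 and 55.5 ± 1.56 for Hepacam. Dtna followed at 18.0 ± 1.01 FPKM, Dag1 at 17.1 ± 1.03, Clcn2 at 9.73 ± 1.68, Utrn at 9.32 ± 0.722 and Dmd at 3.05 ± 0.159. Neighbours in this order whose Ctrl libraries overlapped were Mlc1 and Hepacam, Dtna and Dag1, and Clcn2 and Utrn. In Sox2 cKO the means were 118.5, 58.2 and 50.8 FPKM for Aqp4, Mlc1 and Hepacam, 15.4, 14.2 and 14.0 for Dtna, Dag1 and Clcn2, and 7.84 and 2.80 for Utrn and Dmd. There Clcn2 overlapped Dag1 and no longer Utrn. Aqp4 stood above 97.6% of the genes tested by its mean FPKM over all libraries, and Dmd above 34.6%.

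Ratios of FPKM within a library do not depend on how libraries are scaled, and 6 pairs were compared. The ratios had no length correction, so the trend with gene length can enter where paired genes differ in length. The ratio of Mlc1 to Hepacam was 1.28, 1.01 and 1.07 in Ctrl and 1.15, 1.22 and 1.07 in Sox2 cKO, so the groups overlapped around equal levels per length. Dag1 to Aqp4 was 0.114 ± 0.00437 in Ctrl and 0.120 ± 0.000647 in Sox2 cKO, and Dmd to Utrn 0.329 ± 0.0219 and 0.357 ± 0.0239, both with overlap. Dtna to Dmd was 5.91 ± 0.462 and 5.51 ± 0.252. Aqp4 to Hepacam was 2.61, 2.74 and 2.75 in Ctrl and 2.16, 2.65 and 2.21 in Sox2 cKO, where library 3 reached into the Ctrl range.

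Clcn2 to Hepacam was the pair without overlap. In FPKM every Sox2 cKO library lay above every Ctrl library for Clcn2 and below every Ctrl library for Hepacam. The ratio therefore had to separate, and its test adds nothing to the values of the single genes. Its ratio was 0.198, 0.180 and 0.147 in Ctrl and 0.307, 0.279 and 0.242 in Sox2 cKO, a log2 difference of 0.66 between the group means. An exact two-sided permutation test returned p = 0.1, below which a design of 3 mice in each group cannot go, and 0.3 after Benjamini-Hochberg adjustment over the 6 pairs. For the other pairs the exact permutation p was 0.2 to 0.8.

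**Figure D4:**
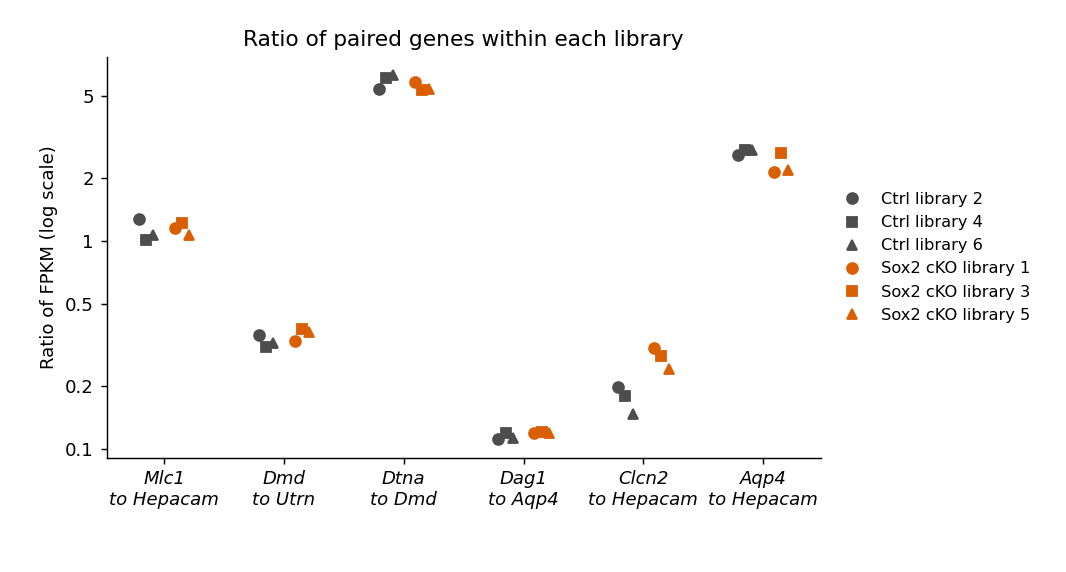
Ratio of the FPKM of paired genes (vertical axis, log scale) within each library, Ctrl in grey and Sox2 cKO in orange. The groups overlap for every pair apart from Clcn2 to Hepacam, whose Sox2 cKO libraries lie at 0.242 to 0.307 and Ctrl libraries at 0.147 to 0.198. That gap follows from the FPKM of both genes, which were separate in opposite directions.

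Other astrocyte genes were lower in the same libraries. Of 15 astrocyte markers, all of them detected, 7 fell and the other 8 were not called, at a list median of -0.24 on the log2 scale. Beside these counts, 12.4% of all genes were called lower, or 6.99% with the length correction. Gfap, the intermediate filament of astrocytes, was the highest of them per length and fell by 1.11 ± 0.15 (edgeR adjusted p = 0.0102), the bicarbonate transporter Slc4a4 fell by 0.71 ± 0.12 (edgeR adjusted p = 0.0125), and the glutamate transporter Slc1a2 fell by 0.62 ± 0.12 (edgeR adjusted p = 0.0136). Values of the 15 were below 0 for 12 and ran up to 0.10. Of the 15, 4 were called lower with the length correction, Gfap (-1.20) and Slc4a4 (-0.41) among them, and Slc1a2 lost its call (-0.21, edgeR adjusted p = 0.0928). The summed level of the 15 markers was 10244 to 12801 CPM in Ctrl and 7973 to 8390 CPM in Sox2 cKO. Aldh1l1, a pan-astrocyte marker, was at 82.4 ± 9.15 and 63.7 ± 5.58 CPM and fell by 0.37 ± 0.10 (edgeR adjusted p = 0.0266), a call lost with the length correction (-0.30, edgeR adjusted p = 0.0510) and kept in 2 of 6 edgeR fits without a library. Measured as FPKM relative to Aldh1l1 in the same library, Aqp4 was 7.91 ± 0.648 in Ctrl and 7.55 ± 1.04 in Sox2 cKO, and 7 of the 8 genes overlapped between groups, as did 52.5% of all genes tested. Clcn2 relative to Aldh1l1 was 0.518 ± 0.129 in Ctrl and 0.891 ± 0.113 in Sox2 cKO without overlap, as were 45.2% of all genes tested in that direction. The exact permutation p was 0.1, and 0.8 after Benjamini-Hochberg adjustment over the 8 genes. In FPKM Clcn2 was higher and Aldh1l1 lower in Sox2 cKO without overlap, so this ratio had to separate. Aldh1l1 is 1 marker of 15, named with its values known, and another marker would give other ratios. These ratios had no length correction either. The part of astrocyte number or astrocyte RNA in these values was not tested.

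Around dystroglycan and dystrophin, 13 of 15 further complex members passed the filter on low counts, of which 2 fell and 11 were not called (median -0.195). The shares over all genes were 12.4% lower and 12.2% higher, and 6.99% and 6.08% with the length correction. Nos1, the neuronal nitric oxide synthase, fell by 0.56 ± 0.11 (edgeR adjusted p = 0.0132), from 85.0 ± 10.5 to 57.8 ± 6.45 CPM. Sspn, which encodes sarcospan, fell by 0.36 ± 0.08 (edgeR adjusted p = 0.0181), from 41.1 ± 2.76 to 32.1 ± 0.890 CPM. With the length correction 2 of the 13 were called lower, among them Sspn at -0.26 (edgeR adjusted p = 0.0491), and Nos1, one of the longer genes, was not (-0.19, edgeR adjusted p = 0.0679).

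Dystroglycan needs sugar chains to bind laminin, and 17 of 18 genes of that glycosylation pathway were tested. Of these 3 fell and 2 rose, with a median of -0.08, where 12.4% of all genes were called lower and 12.2% higher. Dpm2 and Dpm3, small subunits of the enzyme that makes dolichol-phosphate mannose, rose by 0.91 ± 0.16 (edgeR adjusted p = 0.0125) and 0.65 ± 0.09 (edgeR adjusted p = 0.0119). Dolk, a dolichol kinase, fell by 0.46 ± 0.10 (edgeR adjusted p = 0.0145). B4gat1, the highest per length, was at 72.2 ± 2.74 and 75.2 ± 1.06 CPM with a log2 fold change of 0.06 that did not pass the test. With the length correction Dolk and Dpm2 alone of the list were called, at -0.61 (edgeR adjusted p = 0.0185) and 0.66 (edgeR adjusted p = 0.0194).

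Among 13 extracellular ligands of dystroglycan and their basal lamina partners, 1 fell and 1 rose (median -0.05). Beside them, 12.4% of all genes were called lower and 12.2% higher, and 6.99% and 6.08% with the length correction. Lamc1, the laminin γ chain shared by most laminins, fell by 0.58 ± 0.11 (edgeR adjusted p = 0.0130), from 78.1 ± 11.3 to 52.3 ± 4.85 CPM. Agrn, which encodes agrin, had 131, 119 and 114 CPM in Ctrl and 169, 153 and 131 CPM in Sox2 cKO. It rose by 0.32 ± 0.10 (edgeR adjusted p = 0.0484), and by 0.64 ± 0.15 with the length correction (edgeR adjusted p = 0.0259). After that correction the median of the 13 turned to 0.303, with 2 genes called, both of them higher.

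**Figure D5:**
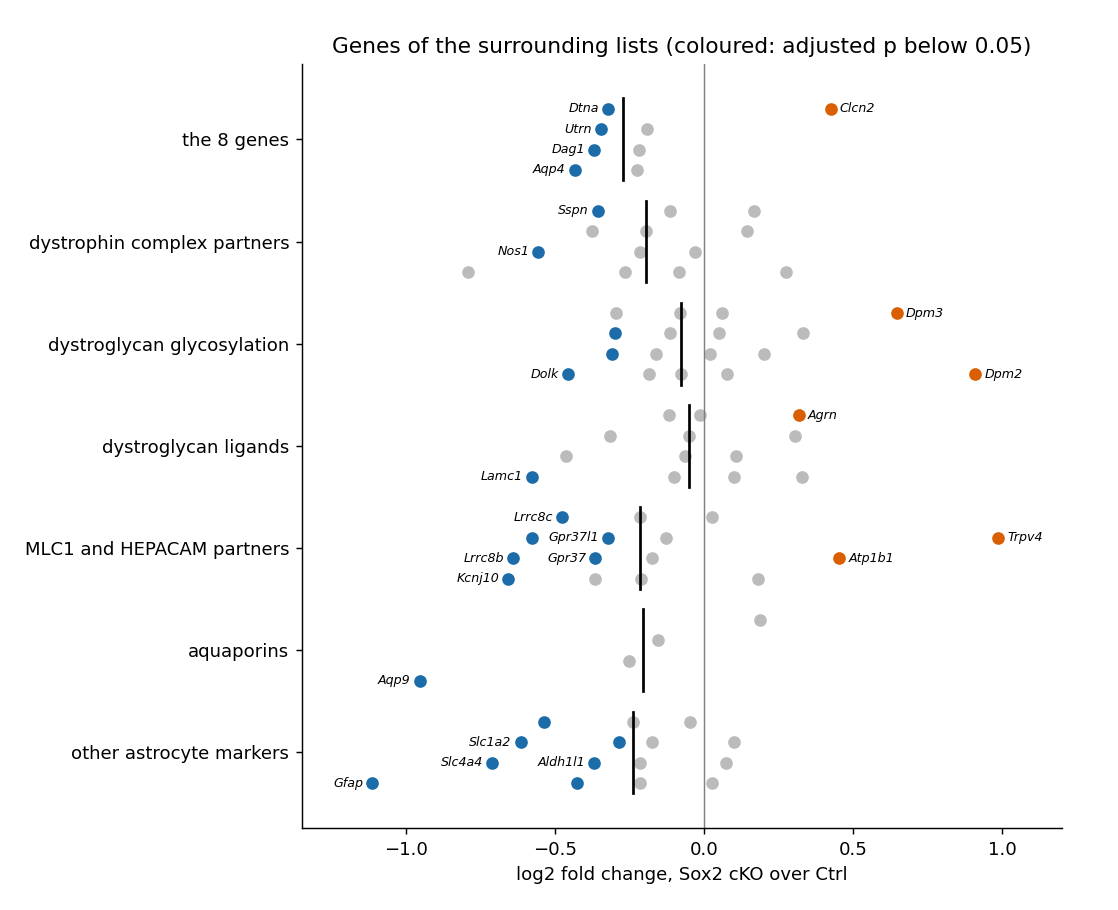
log2 fold change of Sox2 cKO over Ctrl (horizontal axis) of each gene tested in the 8 genes, 5 lists of related genes and 15 astrocyte markers, blue and orange where the edgeR adjusted p was below 0.05, grey otherwise, with names on the genes described in the text and a black bar at the list median. Most coloured points lie left of 0, and Clcn2, Dpm2, Dpm3, Agrn, Atp1b1 and Trpv4 lie right of it.

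By number, the partners of MLC1 and HEPACAM held the most calls among the lists of related genes. Of 16 genes 15 were tested, 6 fell and 2 rose, with a median of -0.215, where 12.4% of all genes were called lower and 12.2% higher. Kcnj10, the potassium channel Kir4.1 of the endfoot, had 972, 1104 and 1187 CPM in Ctrl and 609, 700.0 and 759 CPM in Sox2 cKO. It fell by 0.66 ± 0.11 (edgeR adjusted p = 0.0125), and by 0.49 ± 0.08 with the length correction (edgeR adjusted p = 0.0185). Lrrc8b, a subunit of the volume-regulated anion channel, fell by 0.64 ± 0.17 (edgeR adjusted p = 0.0239). Lrrc8c, another such subunit, and the receptors Gpr37 and Gpr37l1 fell by 0.32 to 0.48. Atp1b1, a pump subunit abundant in neurons, rose by 0.45 ± 0.12 (edgeR adjusted p = 0.0261), from 1353 ± 246 to 1852 ± 61.8 CPM. Trpv4, a cation channel opened by cell swelling, rose by 0.99 ± 0.32 (edgeR adjusted p = 0.0490) at a low level, with 1.03, 1.16 and 0.965 CPM in Ctrl and 2.42, 1.23 and 2.68 CPM in Sox2 cKO. With the length correction 4 genes were called, all of them lower, where 6.99% of all genes were called lower. The astrocyte marker list shares Gja1, Gjb6 and Atp1b2 with this list.

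Apart from Aqp4, aquaporins were scarce. Of 10 others 4 passed the filter on low counts, 1 of which fell, where 12.4% of all genes were called lower. Aqp9, a channel for water and glycerol, had 1.44, 2.08 and 2.99 CPM in Ctrl and 0.966, 1.30 and 1.06 CPM in Sox2 cKO, and fell by 0.96 ± 0.31 (edgeR adjusted p = 0.0455). Aqp11, the highest of them per length, was at 10.1 ± 1.05 and 9.09 ± 1.03 CPM, and its log2 fold change of -0.16 did not pass the test (edgeR adjusted p = 0.425). The summed level of the 10 genes was 16.4 to 18.3 CPM in Ctrl and 15.02 to 15.3 CPM in Sox2 cKO, beside 518 to 811 CPM for Aqp4 alone.

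Cells other than astrocytes also express some of the 8 genes, and their markers were counted. The shares over all genes beside these counts were 12.4% lower and 12.2% higher, and 6.99% and 6.08% with the length correction. Of 8 endothelial markers 1 rose (Ly6c1), and the summed level was 218 to 244 CPM in Ctrl and 226 to 323 CPM in Sox2 cKO, with library 1 the highest. Of 7 pericyte and smooth muscle markers 1 fell (Cspg4) and 1 rose (Kcnj8), at a summed 156 to 169 CPM in Ctrl and 153 to 198 CPM in Sox2 cKO. Of 6 ependymal markers 2 fell (Foxj1 and Hydin), and the summed level did not overlap, at 50.3 to 60.5 and 44.5 to 47.3 CPM. Of 5 oligodendrocyte precursor markers tested 4 fell, among them Gpr17 by 0.87 ± 0.20 (edgeR adjusted p = 0.0176), and their sum was 185 to 216 CPM in Ctrl and 121 to 162 CPM in Sox2 cKO. The length correction left 1 ependymal marker, Foxj1, and 2 precursor markers, Gpr17 one of them, called lower, and the precursor median went from -0.426 to -0.131. None of 7 neuronal, 7 oligodendrocyte, 6 microglial, 6 meningeal and 7 Schwann cell markers was called by edgeR, though 8 of these 33 had an unadjusted p below 0.05 and DESeq2 called 6, with list medians from -0.144 to 0.086, and the summed neuronal level was higher in Sox2 cKO without overlap, at 5488 to 5681 CPM against 4662 to 5443. The part of these cells in the levels of the 8 genes was not tested.

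Likeness over the 6 libraries was measured as Pearson's r of log2 CPM among 10125 genes with a mean of at least 10 CPM, as a description, since the points share library and group. The genes closest to Aqp4 were Ankib1 (r = 0.999), Abcc1 (0.998) and Taf1 (0.997). Closest to Hepacam was Drp2, a dystrophin-related gene of the complex list (0.997), followed by Yme1l1 and Ddx19b (both 0.993). Those closest to Dmd were Lbh, Reep3 and Cckbr (0.996 to 0.997). For Mlc1 the highest values were lower, with Rybp at 0.968, Ppp2r2a at 0.962 and Fam122b at 0.961. Among the 8 genes, Dag1 and Dtna were the most alike (r = 0.991), and Clcn2 was negatively related to each of the other 7, from -0.413 with Mlc1 to -0.880 with Dtna.

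Which genes edgeR called depended on single libraries. The log2 fold changes of the 8 genes kept their sign in all 6 omissions. With the groups separate in CPM for each of the 8, omitting a library could hardly turn a sign, so this adds nothing. The log2 fold changes ranged from -0.50 to -0.36 for Aqp4, -0.44 to -0.29 for Dag1, -0.40 to -0.28 for Utrn and -0.38 to -0.26 for Dtna. The ranges were -0.29 to -0.13 for Dmd, -0.25 to -0.09 for Mlc1, -0.28 to -0.19 for Hepacam and 0.31 to 0.51 for Clcn2. Of the 8 genes, 5 were called lower without Ctrl library 2, where 18.6% of all genes were. The count was 1 without Ctrl library 6 (2.90% of all genes), 2 without Sox2 cKO library 3 (4.04%) and 1 without library 5 (8.18%), and it was 0 without Ctrl library 4 and 0 without Sox2 cKO library 1. Without Ctrl library 4, 26 of all genes were called, 13 in each direction, with 4758 at an unadjusted p below 0.05, and without Sox2 cKO library 1 it was 5 lower and 3 higher with 4945, so calls were lost over all genes as well. DESeq2 called 1 to 5 of the 8 lower over the same 6 omissions, with the lowest count without Ctrl library 4, and 4.58% to 12.4% of all genes. Its shares are of all genes with a count, a wider set than edgeR tested. On log2 FPKM with a pseudocount of 1, limma called Aqp4 lower (adjusted p = 0.0288) and Clcn2 higher (adjusted p = 0.0305) and none of the others, where it called 6.20% of all genes lower and 18.1% higher. The median log2 fold change over the genes of that fit was 0.089, beside 0.018 with edgeR.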

How the data were processed

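Poly(A) RNA of whole spinal cord was sequenced as single-end reads. According to the submitters' processing notes and the study's methods, the authors aligned reads to mm10 with STAR 2.5 and counted them per gene with HTSeq 0.6.1, and the deposited counts are not normalized. The authors also deposited FPKM, made from the same counts, gene length and library total. The TMM factors, which FPKM lack, were 0.943 to 0.994 in Ctrl and 1.013 to 1.06 in Sox2 cKO. Values in FPKM therefore sit higher in Sox2 cKO relative to Ctrl than values in CPM. Symbols and positions came from GENCODE M21 (34490 of 35275 identifiers matched). A further 0 columns of per-sample values were left unused.

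The main test was that of edgeR 4.0.16 in R 4.3.3 on counts (filterByExpr, TMM, quasi-likelihood test without covariates, Benjamini-Hochberg adjustment over 16137 genes, threshold 0.05). Standard errors of edgeR fold changes were the absolute log2 fold change divided by the square root of the F statistic, and so restate the test. The length correction was an offset from a lowess curve (span 0.3) in each library. Alternatives were DESeq2 1.42.0, other normalizations and filters, limma 3.58.1 on log2(FPKM + 1) or log2(FPKM + 0.1) for genes whose mean FPKM reached 0.5, and fits without each library. A limma fit on log2(FPKM + 1) without that filter also used the robust option of the variance moderation. Fits were tested on simulated data. Ratios of FPKM were compared by exact permutation tests.

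The 8 genes, the lists of related genes and the cell type markers were chosen with earlier results of these data known. Named genes are the 8, Sox2, Kcnj10, the gene of each list with the highest mean FPKM, up to 4 called genes of each list with the largest change, and the 3 genes most like Aqp4, Mlc1, Hepacam and Dmd. Aldh1l1, Fam131a, Polr2h, Gm47898, Lrrc8c, Gpr37 and Gpr37l1 were named after their values were seen, and some genes that this rule selects are not reported here. Promoter windows came from RefSeq (GRCm38.p6). Positions of the SOX2 sites were checked on 109 sites inside such windows, and all 109 matched. The fold changes and p-values of the authors' own comparisons were not used.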

Additional observations from a re-analysis of the deposited data

How the results depend on the processing

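The counts of the 8 genes called (4 lower, 1 higher) were 5 and 1 with DESeq2, which called 9.61% of all genes lower and 8.13% higher. They were 4 and 1 with upper quartile (10.2% and 14.3% of all genes) or RLE normalization (12.9% and 11.6%), without a filter on low counts (8.55% and 8.62%), and with at least 10 counts in every library (13.6% and 13.7%). Shares for DESeq2 and for edgeR without a filter are of 24442 genes with a count, against 16137 in the main test. On log2 FPKM limma called 1 lower with a pseudocount of 1 (6.20% of all genes lower and 18.1% higher) or 0.1 (6.07% and 17.7%). Without a filter, and with the robust option of its variance moderation, limma called 0 lower and 0 higher. That fit called 0.409% of all genes lower and 2.68% higher, and 6707 of 24442 genes had an unadjusted p below 0.05. The length correction called 2 lower, and it reversed Dmd (0.23) and Utrn (0.070). The cause of these changes was not tested.

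Of the related lists, aquaporins (1 called) had 0 with upper quartile normalization, limma and the length correction. Dystroglycan ligands (2) had 1 with RLE normalization, 4 with edgeR without a filter and 0 with limma without a filter. Dystroglycan glycosylation (5) had 3 with limma at either pseudocount, 2 with limma without a filter and 2 with the length correction. The MLC1 and HEPACAM partners (8) had 5 with limma at either pseudocount, 1 with limma without a filter and 4 with the length correction, and the dystrophin complex partners (2) had 0 with limma without a filter. In all these counts limma without a filter also had the robust option, so the filter was not the only change.

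Leaving out each library in turn, edgeR called 0 to 5 of the 8 genes lower and 0 to 1 higher, 0 to 5 of the dystrophin complex partners, 0 to 8 of the glycosylation genes, 0 to 4 of the ligands, 0 to 9 of the MLC1 and HEPACAM partners and 0 to 1 of the aquaporins. The same with DESeq2, added after the edgeR values were seen, gave 1 to 5 lower and 0 to 1 higher, and 1 to 5, 3 to 7, 1 to 4, 6 to 10 and 0 to 1 for the lists. The differences of the 6 log2 ratios kept their direction apart from that of Mlc1 to Hepacam, which ranged from -0.03 to 0.14. No paired analysis was possible because the deposited columns carry no replicate numbers, so the replicate block was not run. Between 685 and 19511 counts lay behind each value of the 8 genes.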
